A study of Mus musculus with 43 samples.

Results

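The 3 PIM serine/threonine kinase genes (Pim1, Pim2 and Pim3), 3 genes of anti-apoptotic BCL2 proteins (Bcl2l1, Mcl1 and Bcl2), the cytokine gene Osm and the transcription factor gene Myc were followed across sorted mouse bone marrow cells. They were taken by gene symbol from tables of 56941 gene identifiers, each of the 8 matched a single identifier, and all 8 passed the filter on low counts in every comparison. RNA was sequenced from 43 libraries in 7 groups. Whole marrow carrying JAK2V617F, the constitutively active Janus kinase 2 variant of myeloproliferative neoplasms, and the CD45.2 allele had been given (5 × 1000000 cells) to wild-type CD45.1 mice without conditioning, of the same age and sex as their controls.

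The donor group held CD45.2 JAK2V617F marrow cells of 7 transplanted mice (4 males, 3 females), sorted about 7 months after transplantation. The host group held the wild-type CD45.1 marrow cells of the same 7 mice, and its control group the CD45.1 marrow cells of 8 wild-type mice (4 of each sex) that had received no transplant. Stroma-enriched cells, negative for CD45 and for the blood lineage markers used in the sort, came from the same 7 transplanted and the same 8 control mice. CD45.1 CD11b-positive myeloid cells came from 3 other transplanted males, 52 weeks after transplantation, and 3 control males. The sample labels give the cell dose above and the blood chimerism for the mice sorted at about 7 months, and not for these males. Transplantation and the mutation were not varied separately, so the effects of JAK2V617F cells and of a transplant as such cannot be told apart. Final donor chimerism in blood was 0.63 to 5.99% in the 7 mice. The labels do not say how many donors supplied the marrow. The N204 donor library carries conflicting labels, donor in its title and recipient-derived in its source. Results on donor cells include it, and without it the Pim3 and Myc calls against control cells are lost, as given below. Its summed level of 6 B-cell markers was 17.55 TPM, against 11.19 to 26.44 TPM in the other 6 donor libraries and 65.64 to 260.4 TPM in host libraries.

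JAK2 signals from the receptors of erythropoietin, thrombopoietin and granulocyte colony-stimulating factor to STAT5, which enters the nucleus and activates transcription. PIM kinases need no activating phosphorylation, so their activity follows their level; they phosphorylate the death promoter BAD and promote translation. The BCL2 proteins hold the pore-forming BAX and BAK in check, BCL-XL (from Bcl2l1) being best known in erythroid cells and platelets, MCL1 in neutrophils and stem cells, and BCL2 in lymphocytes.

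In the GRCm38 annotation the PIM genes lie apart, Pim1 at chr17:29490753-29496112 (plus strand), Pim2 at chrX:7878262-7883432 (plus strand) and Pim3 at chr15:88862186-88865726 (plus strand). The anti-apoptotic genes are Bcl2l1 at chr2:152780668-152831728 (minus strand), Mcl1 at chr3:95658788-95663176 (plus strand) and Bcl2 at chr1:106538178-106714274 (minus strand). The other two are Osm at chr11:4236420-4241026 (plus strand) and Myc at chr15:61985391-61990374 (plus strand).

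A set of 3 promoter windows is shown, those of the genes whose differences are described most fully below: Pim2 and Bcl2, the lowest in donor cells relative to controls, and Bcl2l1, the highest in stroma of transplanted mice relative to control stroma. Each runs 5′ to 3′ from 250 bases before to 50 bases after a RefSeq transcript start in GRCm38.p6, whereas the submitters' processing notes name GRCm39 for the reads. The windows are chrX:7878056-7878355 (plus strand), chr1:106714241-106714540 (minus strand) and chr2:152828440-152828739 (minus strand). Capitals mark the only match to a STAT-type palindrome.
Pim2: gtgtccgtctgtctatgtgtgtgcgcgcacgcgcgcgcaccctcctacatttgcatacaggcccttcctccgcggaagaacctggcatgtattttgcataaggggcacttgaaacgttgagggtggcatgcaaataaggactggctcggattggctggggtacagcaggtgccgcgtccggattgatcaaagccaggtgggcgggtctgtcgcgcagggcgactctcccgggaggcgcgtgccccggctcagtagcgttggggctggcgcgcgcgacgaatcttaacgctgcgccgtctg
Bcl2: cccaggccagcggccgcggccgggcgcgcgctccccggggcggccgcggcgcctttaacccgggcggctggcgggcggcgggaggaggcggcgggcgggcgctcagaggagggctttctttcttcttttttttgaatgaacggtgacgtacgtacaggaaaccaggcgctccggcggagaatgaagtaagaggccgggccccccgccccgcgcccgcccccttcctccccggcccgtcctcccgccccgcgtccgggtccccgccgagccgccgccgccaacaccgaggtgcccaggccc
Bcl2l1: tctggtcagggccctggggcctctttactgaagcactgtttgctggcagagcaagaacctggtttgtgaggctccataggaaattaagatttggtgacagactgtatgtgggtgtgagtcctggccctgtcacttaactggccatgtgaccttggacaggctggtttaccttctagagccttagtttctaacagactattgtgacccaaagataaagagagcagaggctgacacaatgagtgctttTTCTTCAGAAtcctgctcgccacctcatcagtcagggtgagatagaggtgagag

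TTCNNNGAA and TTCNNNNGAA, palindromes that read the same on both strands, were searched. RefSeq gave 9 windows for 6 of the genes, and 1 window, the Bcl2l1 window shown, held a match, to TTCNNNNGAA, beginning 4 bases before the start. The other Bcl2l1 windows, chr2:152830668-152830967 and chr2:152831679-152831978, lie nearer the 5′ end of the gene and held no match. TTCNNNGAA matched none of the 9 windows. Among all 32851 windows of 300 bases, 8.3% held TTCNNNGAA, 6.95% held TTCNNNNGAA and 14.57% held either. A match is a stretch of letters, and these windows leave out enhancers and introns.

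Library totals, in units of 1000000 counts, were 15.71 to 19.68 in the CD45-sorted libraries, 41.21 to 143.23 in stroma and 32.48 to 44.85 in CD11b libraries. The summed level of 6 stromal markers (Cxcl12, Lepr, Kitl, Adipoq, Col1a1 and Pdgfrb) had medians of 1851 and 2045 TPM (length-scaled transcripts, summing to 1000000 per library) in stroma of transplanted and control mice, and of 1.3 to 4.5 TPM in the other 5 groups. Stroma libraries also held blood-cell RNA, with medians of 23010 and 21260 TPM for 8 neutrophil markers in transplanted and control mice, against 94700 to 138000 TPM in the 3 CD45-sorted groups. In CD11b cells the medians of that sum were 291500 TPM in transplanted mice and 323400 TPM in control mice.

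On the TPM scale, which is per transcript length and allows genes to be compared, Mcl1 was the highest of the 8 genes in CD45-sorted cells, with group medians of 648.8 TPM in donor, 706.7 TPM in host and 728.8 TPM in control cells. Pim1 followed with medians of 330.9, 402.5 and 370.8 TPM in donor, host and control cells, and Osm with 195.7, 201.6 and 260.1 TPM. Pim3, Bcl2l1 and Myc had group medians between 17.5 and 38.04 TPM in these 3 groups, and Pim2 and Bcl2 between 4.93 and 18.83 TPM. Stroma had another order. Myc and Bcl2l1 were at the top in transplanted mice, and Myc and Mcl1 (median 47.33 TPM) in control mice. Myc medians were 93.66 TPM in stroma of transplanted mice and 75.06 TPM in control stroma, and Bcl2l1 medians were 92.61 and 43.3 TPM.

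**Figure D1:**
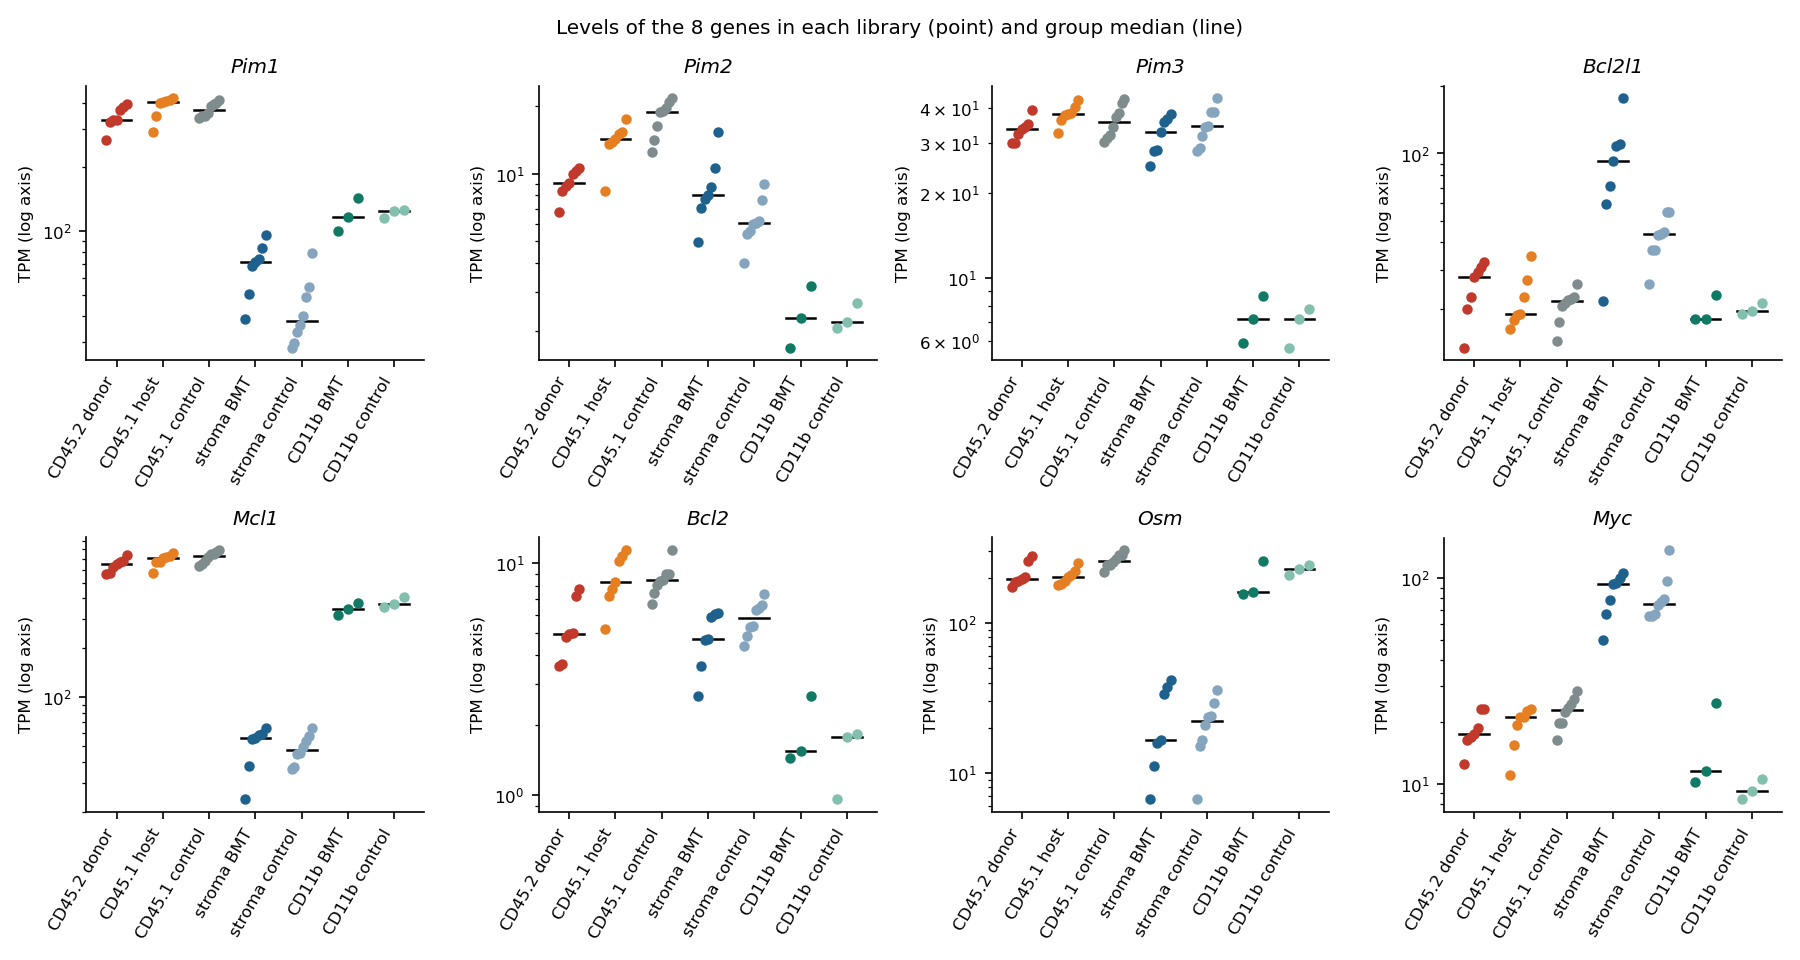
TPM (log axis) of each of the 8 genes in the 43 libraries, 1 panel per gene, with a point per library and a line at the group median; axis ranges differ between panels. Mcl1, Pim1 and Osm are lowest in both stroma groups, Myc and Bcl2l1 have their highest medians in stroma of transplanted mice, and Pim2, Pim3 and Bcl2 are lowest in CD11b cells.

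The order of the 7 group medians was read against the ranges of neighbouring groups. For Pim1 and Mcl1 the 3 CD45-sorted groups overlapped each other and lay above both CD11b groups, which lay above both stroma groups, with no overlap between these 3 blocks. For Osm the 5 CD45-sorted and CD11b groups overlapped their neighbours, with medians from 161.0 to 260.1 TPM, and lay above stroma. Pim3 and Bcl2 lay lowest in CD11b cells, where group medians were 7.19 and 7.21 TPM for Pim3 and 1.55 and 1.79 TPM for Bcl2 in transplanted and control mice. For Pim3 these lay below the 5 other groups without overlap, and for Bcl2 the highest CD11b value (2.68 TPM, transplanted mouse N129) reached the lowest stroma value (2.67 TPM, transplanted mouse N032). Pim2 was lowest there too, at 2.29 TPM in CD11b cells of transplanted mice and 2.2 TPM in control CD11b cells. Myc in stroma lay above the other 5 groups without overlap, and for Bcl2l1 every pair of neighbours in the order overlapped.

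Control stroma was set against CD45.1 cells of the same 8 control mice with edgeR's quasi-likelihood test on the counts. All 8 genes passed at an adjusted p below 0.05, 6 lower and 2 higher in stroma, where 36.3% of the 19824 genes tested were lower and 53.3% higher (89.6% in all, and 89.6% with the animal as a block). The median log2 fold change of all genes was 0.53, and the values below are not shifted for it. Pim1 and Mcl1 had the lowest values, -3.98 ± 0.19 (SE, edgeR adjusted p = 3.8e-13) and -3.98 ± 0.14 (edgeR adjusted p = 5.94e-15), and Osm followed at -3.81 ± 0.27 (edgeR adjusted p = 1.4e-10). Pim2 was lower, at -1.79 ± 0.15, Bcl2 at -1.38 ± 0.10 and Pim3 at -0.30 ± 0.09 on the log2 scale, the Pim3 call being lost on TPM values (limma adjusted p = 0.594 with a pseudocount of 1). Myc was 1.73 ± 0.15 and Bcl2l1 0.90 ± 0.13 higher on the log2 scale. The 2 kinds of library were made with different kits, so cell type and library preparation cannot be told apart.

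In donor cells relative to control cells, 5 of the 8 genes were lower and 0 were higher, where 23% of the 13906 genes tested were lower and 22.7% higher (45.7% in all, and 45.9% with the euthanasia day as block). Pim2, Bcl2, Myc, Osm and Pim3 passed, and the median log2 fold change of the 8 was -0.27, against a median of 0.00 over all genes. In host cells relative to control cells, 2 of the 8, Pim2 and Osm, were lower and 0 were higher, where 7.82% of 14073 genes were lower and 8.61% higher (16.4% in all, and 12.5% with the euthanasia day as block); the median of the 8 was -0.07, against 0.01 over all genes. The donor and host comparisons share their 8 control libraries. In donor cells relative to host cells of the same mice, Pim2 and Bcl2 were lower, 2 of 8 where 9.94% of 13662 genes were lower and 4.17% higher (14.1% in all), and the median of the 8 was -0.14, against 0.00 over all genes. With the animal as a block 33.7% of genes passed in this comparison, and so did 4 of the 8 genes, Pim1 and Pim3 being added on the lower side. A lower level in such sorted bulk samples can come from fewer cells of a type or from less RNA per cell, which cannot be told apart.

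**Figure D2:**
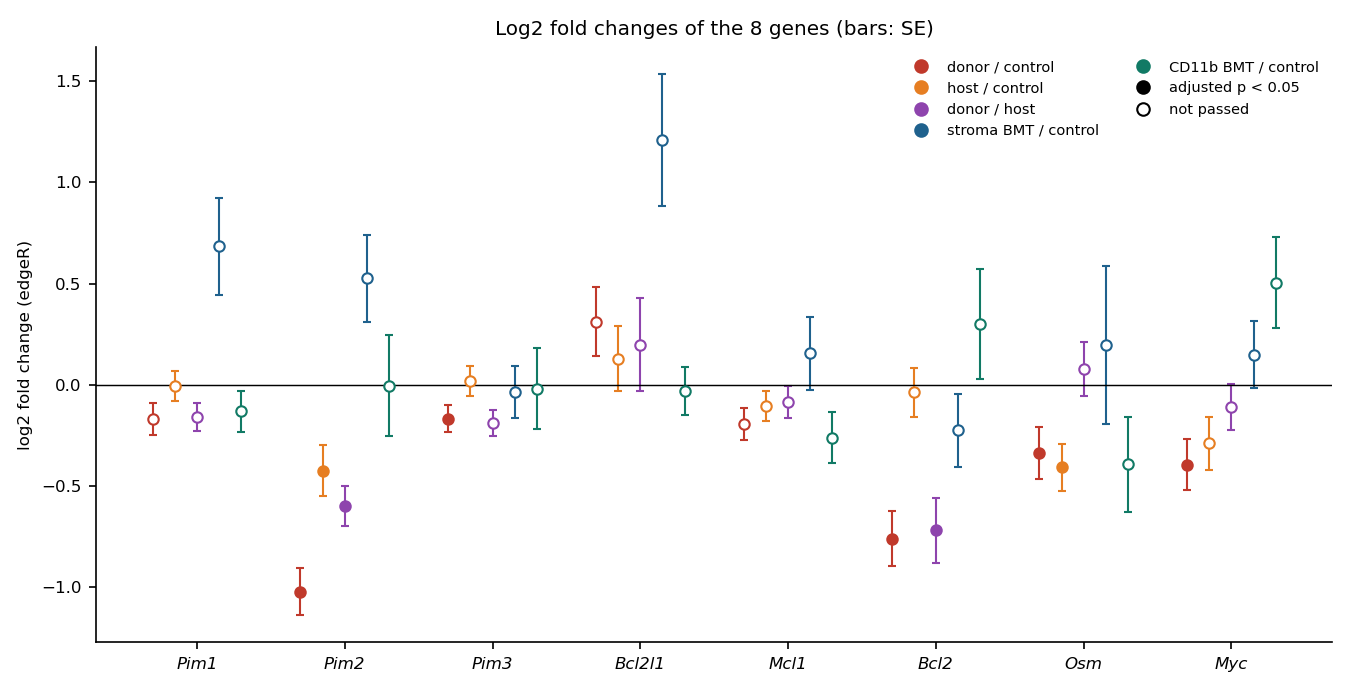
Log2 fold changes from edgeR for the 8 genes in 5 comparisons, bars showing the SE, filled points an adjusted p below 0.05 and open points values that did not pass. Pim2 has a filled point in each of the 3 comparisons of CD45-sorted cells, at -1.02, -0.42 and -0.60, and Bcl2l1 in stroma, at 1.21, is open.

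Pim2, the PIM kinase best known from lymphoid cells, had the largest log2 fold change of the 8 genes in donor cells relative to control cells. Its lowest, median and highest values were 6.78, 9.09 and 10.55 TPM in donor cells, 8.39, 14.17 and 17.51 TPM in host cells, and 12.5, 18.83 and 21.51 TPM in control cells. All 7 donor libraries lay below all 8 control libraries, and all 7 host libraries lay below the control median. Pim2 was 0.491-fold of control in donor cells (log2 fold change -1.02 ± 0.12 SE, edgeR adjusted p = 1.79e-06), and this call held in each alternative run, with values of -1.09 to -0.89. In host cells it was -0.42 ± 0.12 relative to control (edgeR adjusted p = 0.0275), but blocking on the euthanasia day gave an adjusted p of 0.117 and on TPM values (limma, pseudocount 1) 0.146, and without the host library of N014 or N032 it was 0.0545 or 0.0513 (edgeR). Donor against host cells gave -0.60 ± 0.10 (edgeR adjusted p = 0.000425), with donor cells lower in 7 of 7 mice by 0.31 to 0.81 on the log2 TPM scale.

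Pim1, the PIM kinase induced by many cytokine receptors, showed small differences. The lowest, median and highest Pim1 values were 266.3, 330.9 and 395.4 TPM in donor cells, 290.6, 402.5 and 418.2 TPM in host cells, and 337.5, 370.8 and 412.3 TPM in control cells, and the 3 ranges overlapped. The log2 fold change was -0.17 ± 0.08 in donor cells relative to control (edgeR adjusted p = 0.0899), passing without the donor library of N014 (0.0495) or the control library of N093 (0.0352), and in host cells it was -0.01, with a 95% interval of -0.15 to 0.14. Within mice donor cells were lower than host cells in 7 of 7 by 0.07 to 0.33 on the log2 TPM scale. The log2 fold change was -0.16 ± 0.07, with an edgeR adjusted p of 0.139 without the animal block and 0.00665 with it. An antisense gene, Gm26885, overlaps Pim1; the CD45-sorted libraries are strand-specific per the labels, but the strand setting of the counting is not given in the sources used here, so the reads of the 2 genes cannot be told apart.

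Pim3, expressed at a similar level in all CD45-sorted and stroma groups, was lower in donor cells than in control cells by a small amount. Lowest, median and highest Pim3 values were 29.95, 33.73 and 39.33 TPM in donor cells, 32.69, 38.04 and 42.74 TPM in host cells, and 30.34, 35.67 and 42.99 TPM in control cells. The ranges overlapped throughout. Against control the donor log2 fold change was -0.17 ± 0.07 (edgeR adjusted p = 0.0492), a call that was lost on TPM values and without the filter on low counts. It held in 6 of 15 fits leaving out 1 library and was lost without the donor library of N204 (edgeR adjusted p = 0.125), N032, N203, N279 or N269 or the control library of N288, N002, N280 or N283. Donor cells lay below host cells in 7 of 7 mice by 0.11 to 0.43 on the log2 TPM scale, with an edgeR adjusted p of 0.067 without the animal block, 0.0225 without the host library of N269 and 0.00651 with the block. Host cells differed from control by 0.02, with a 95% interval of -0.13 to 0.16.

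**Figure D3:**
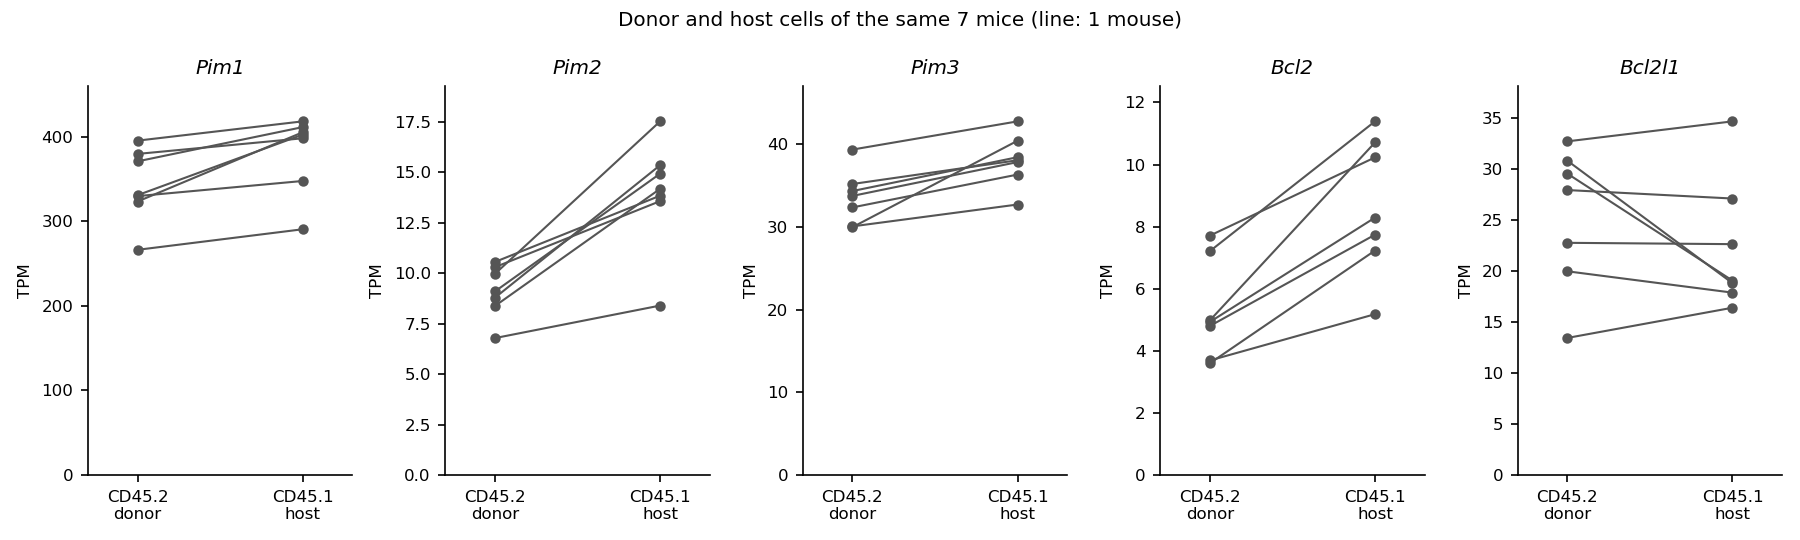
TPM of Pim1, Pim2, Pim3, Bcl2 and Bcl2l1 in donor cells (left) and host cells (right) of the same mouse, 1 line per mouse (n = 7), with axes from 0. Pim1, Pim2, Pim3 and Bcl2 are lower on the donor side in 7 of 7 mice, while Bcl2l1 is lower in 2 and higher in 5.

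Bcl2, the founding anti-apoptotic gene of the family, was lower in donor cells than in both wild-type groups. Its lowest, median and highest values were 3.6, 4.93 and 7.71 TPM in donor cells, 5.18, 8.29 and 11.39 TPM in host cells, and 6.68, 8.43 and 11.38 TPM in control cells. Of the 7 donor libraries, 5 lay below all control libraries and 5 below all host libraries. Donor cells had 0.59-fold the control level (log2 fold change -0.76 ± 0.13 SE, edgeR adjusted p = 0.000196), and -0.72 ± 0.16 relative to host (edgeR adjusted p = 0.00572). Both calls held in each alternative run, and the donor value was lower than the host value in 7 of 7 mice by 0.41 to 1.11 on the log2 TPM scale. Host cells differed from control by -0.04, with a 95% interval of -0.28 to 0.20. The antisense gene D630008O14Rik overlaps Bcl2, as do Mir3473f and Gm37053 on its own strand, and their reads cannot be told apart here.

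Most markers of lymphoid cells were lower in donor cells than in control cells, as were Pim2 and Bcl2. In host cells the B-cell markers and Pim2 were lower than in control cells, and Bcl2 did not pass. The summed level of 6 B-cell markers ran from 11.19 to 26.44 TPM in donor cells, from 65.64 to 260.4 TPM in host cells and from 185.3 to 519.5 TPM in control cells, and all 6 were lower in donor and in host cells than in control cells. No marker of the list was at 0 in all libraries of a CD45-sorted group. The 4 plasma-cell markers summed to 151.0 to 204.1 TPM in donor, 200.4 to 359.8 TPM in host and 363.1 to 496.1 TPM in control cells, with 3 of 4 lower in donor and 2 of 4 in host cells. Of the 8 T- and NK-cell markers, 7 were lower in donor cells than in control cells, and Nkg7, with medians of 282.3 TPM in donor and 184.1 TPM in control cells, was higher; in host cells 0 were lower and 1, Nkg7, was higher. Across the 22 CD45-sorted libraries, which share preparation and group differences, Pearson's r with the B-cell sum was 0.898 for Pim2 and 0.681 for Bcl2, and with the plasma-cell sum 0.899 and 0.723. With the T- and NK-cell sum r was 0.287 for Pim2 and 0.547 for Bcl2. That sum had medians of 288.6 TPM in donor and 288.8 TPM in control cells, most of it Nkg7. It therefore does not show the lower level of the other 7 markers in donor cells. The 4 endothelial markers, with medians of 15.39 TPM in donor, 20.31 TPM in host and 18.14 TPM in control cells, had r of 0.876 with Bcl2. The part of these markers in the Pim2 and Bcl2 differences was not tested.

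**Figure D4:**
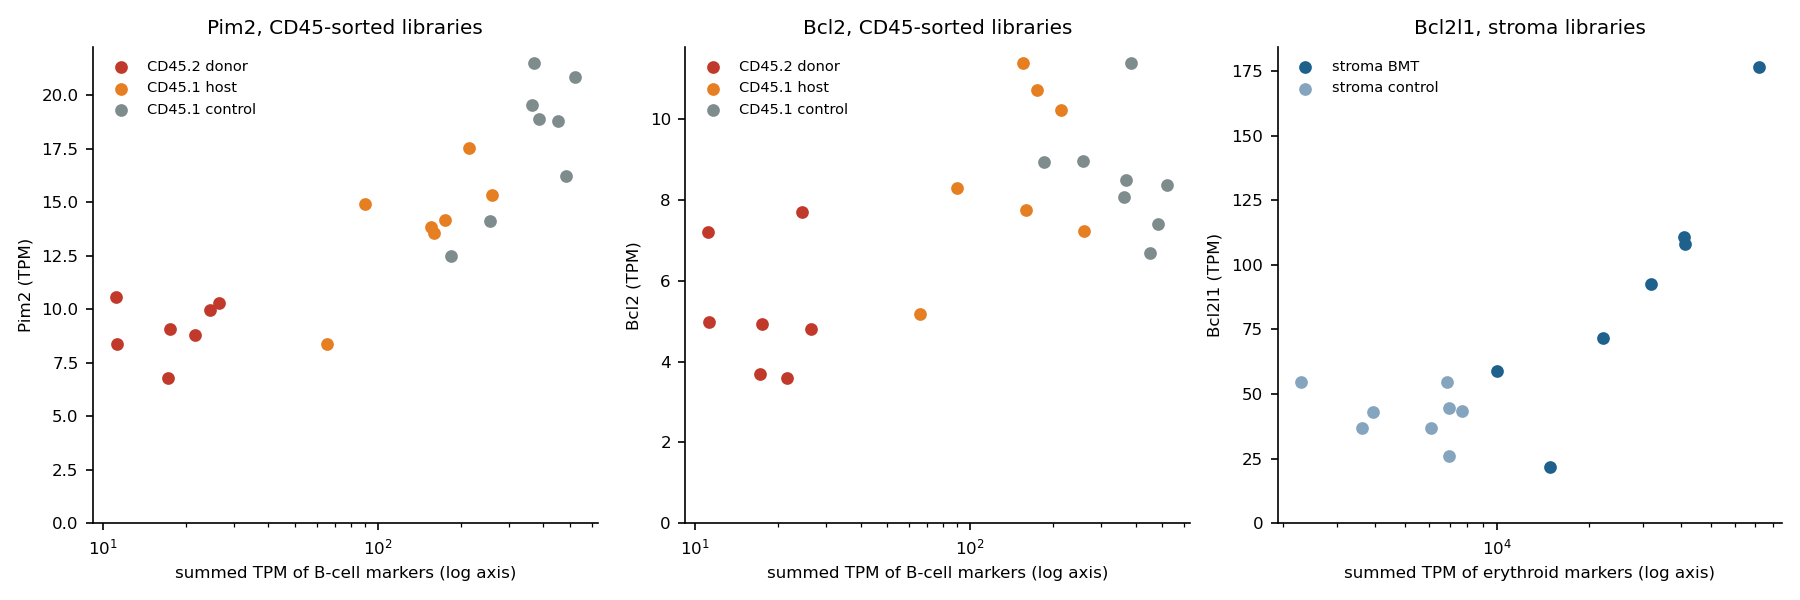
Pim2 and Bcl2 (TPM) against the summed TPM of 6 B-cell markers (log axis) in the 22 CD45-sorted libraries, and Bcl2l1 against the summed TPM of 8 erythroid markers (log axis) in the 15 stroma libraries, 1 point per library. Donor libraries have B-cell sums of at most 26.44 TPM and Pim2 at most 10.55 TPM, and the stroma library of transplanted mouse N203 is highest on both axes of the right panel.

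Mcl1, a short-lived anti-apoptotic protein's gene, showed small differences that did not pass. Lowest, median and highest Mcl1 values were 564.6, 648.8 and 736.1 TPM in donor cells, 572.7, 706.7 and 755.5 TPM in host cells, and 629.9, 728.8 and 789.7 TPM in control cells. The ranges overlapped. Donor cells had a log2 fold change relative to control of -0.19 ± 0.08 (edgeR adjusted p = 0.055), and it passed with DESeq2 (adjusted p = 0.0218), with the stricter filter, without the sex covariate, in 1 fit of all CD45-sorted groups, and without the donor library of N203 or the control library of N002. In host cells it was -0.11, with a 95% interval of -0.25 to 0.04.

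Bcl2l1, which encodes BCL-XL, had the only positive log2 fold change of the 8 genes in donor cells relative to control cells. The lowest, median and highest Bcl2l1 values were 13.43, 27.92 and 32.69 TPM in donor cells, 16.39, 19.05 and 34.65 TPM in host cells, and 14.46, 21.69 and 26.05 TPM in control cells. Of the 7 donor libraries, 4 lay above all control libraries and 1 below all of them. Against control, the donor log2 fold change was 0.31 ± 0.17 (edgeR adjusted p = 0.142) and passed without the filter on low counts (edgeR adjusted p = 0.0333), with the euthanasia day as block, at 0.39 (edgeR adjusted p = 0.0269), and without the donor library of N005, at 0.43 (edgeR adjusted p = 0.00579). In host cells it was 0.13, with a 95% interval of -0.19 to 0.45, and relative to host cells the donor value was 0.20, with an interval of -0.25 to 0.65. Of 8 erythroid markers, 5 were higher and 2, both haemoglobin genes, lower in donor cells than in control cells, with summed levels of 217.9 to 1172 TPM in donor and 214.1 to 1677 TPM in control cells. The median of this erythroid sum was 469.7 TPM in donor and 883.4 TPM in control cells. Over the 22 CD45-sorted libraries, Bcl2l1 had r of -0.376 with the erythroid sum and 0.511 with the sum of 8 neutrophil markers. The part of these markers in the Bcl2l1 values was not tested.

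Osm encodes oncostatin M, an interleukin 6 family cytokine made by myeloid cells and a STAT5 target. Its lowest, median and highest values were 174.1, 195.7 and 281.0 TPM in donor cells, 178.1, 201.6 and 249.3 TPM in host cells, and 217.1, 260.1 and 306.9 TPM in control cells. In each of the donor and host groups 5 of 7 libraries lay below all control libraries. The log2 fold change relative to control was -0.41 ± 0.12 in host cells (edgeR adjusted p = 0.0244; 0.0227 with the euthanasia day as block, at -0.23) and -0.34 ± 0.13 in donor cells (edgeR adjusted p = 0.0428). The donor call was lost with that block, at -0.17 (edgeR adjusted p = 0.13), and without the donor library of N014, N032, N005, N279 or N269 or the control library of N208, N288, N051 or N280. The host call was lost without the host library of N279, N014, N032 or N005, with edgeR adjusted p of 0.0502 to 0.0545. Donor and host cells differed by 0.08, with a 95% interval of -0.18 to 0.34. The sum of 5 monocyte markers was 2622 to 3394 TPM in donor, 2773 to 3320 TPM in host and 2245 to 2640 TPM in control cells, and r between Osm and this sum was -0.736 over the 22 libraries. The sum of 6 macrophage markers was 58.76 to 121.7 TPM in donor, 86.8 to 174.4 TPM in host and 56.54 to 69.2 TPM in control cells, where 4 of 5 tested were higher in donor cells and 5 of 6 in host cells than in control cells, and its r with Osm was -0.616; with the sum of 4 early-neutrophil markers r was -0.642. In the other direction, r was 0.574 with the sum of 8 neutrophil markers and 0.461 with the B-cell sum. The part of these markers in the Osm values was not tested.

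The receptor side of oncostatin M lay in stroma. Osmr, its specific receptor, had medians of 40.27 TPM in stroma of transplanted mice and 33.54 TPM in control stroma, and medians of 0 to 0.03 TPM in the other 5 groups. Il6st, the shared subunit gp130, had medians of 64.84 and 62.43 TPM in stroma of transplanted and control mice and 9.6, 14.88 and 15.29 TPM in donor, host and control cells. Il6st was lower in donor cells than in control cells, with a log2 fold change of -0.57 ± 0.09 (edgeR adjusted p = 4.6e-05), and Lifr was higher in host cells, by 0.35 ± 0.11 (edgeR adjusted p = 0.0401). None of the 5 genes of this list (Osmr, Il6st, Lifr, Lif and Il6) passed between stroma of transplanted and control mice.

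Myc, the growth regulator and STAT5 target, was lower in donor cells. Lowest, median and highest Myc values were 12.5, 17.5 and 23.19 TPM in donor cells, 10.99, 21.15 and 23.02 TPM in host cells, and 16.32, 22.85 and 28.38 TPM in control cells. The groups overlapped, with 2 donor and 2 host libraries below all control libraries. The log2 fold change relative to control was -0.40 ± 0.13 in donor cells (edgeR adjusted p = 0.0168) and -0.29 ± 0.13 in host cells (edgeR adjusted p = 0.136, and 0.0298 without the control library of N093). The donor call was lost on TPM values (limma adjusted p = 0.0985 with a pseudocount of 1) and without the donor library of N204 (edgeR adjusted p = 0.0519). Donor and host cells differed by -0.11, with a 95% interval of -0.33 to 0.11.

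MYC target genes were measured beside Myc itself. Of 14 targets, 11 were higher and 0 lower in donor cells than in control cells, with a median log2 fold change of 0.43, where 22.7% of all genes tested were higher and the median was 0.00. The 4 with the smallest p were Cdk4, a cell-cycle kinase, at 0.55 ± 0.07, Srm, spermidine synthase, at 0.95 ± 0.12, and the nucleolar protein gene Nolc1 at 0.54 ± 0.09, with the chaperonin gene Hspd1 at 0.52 ± 0.10. In host cells 3 of 14 were higher and 0 lower, with a median of 0.19, where 8.61% of all genes were higher: Cdk4 at 0.34 ± 0.06, Srm at 0.45 ± 0.14 and Nolc1 at 0.25 ± 0.08. Donor cells were higher than host cells for 5 of 14, where 4.17% of all genes were, among them Cad, which starts pyrimidine synthesis, at 0.44 ± 0.10. Among 9 partners and paralogues of MYC, Mlx was higher and the repressor gene Mxd4 (-0.69 ± 0.08) and the paralogue Mycl (-1.66 ± 0.23) lower in donor cells than in control cells, and Mxd4 was lower in host cells (-0.30 ± 0.07). Markers of early neutrophils moved too, with 4 of 4 higher in donor cells and 2 of 4 in host cells, and sums of 9154 to 14870 TPM in donor, 7742 to 12320 TPM in host and 4623 to 9468 TPM in control cells; their part was not tested.

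The rest of the BCL2 family held calls on both sides, as did all genes tested, with 22.7% higher and 23% lower in donor cells and 8.61% higher and 7.82% lower in host cells relative to control cells. Of the 5 other anti-apoptotic genes, 3 were tested in donor cells: Bcl2l2 was higher than in control cells, by 0.54 ± 0.09, and Bcl2a1b (-1.41 ± 0.22) and Bcl2a1d (-1.32 ± 0.18) were lower, values that are uncertain because these copies are nearly identical. Of 8 BH3-only genes, whose proteins trigger cell death, 6 were tested, 3 were higher and 2 lower in donor cells than in control cells. Pmaip1, encoding NOXA, was higher by 0.71 ± 0.11 and Bad by 0.55 ± 0.08, and Bmf was lower, at -1.89 ± 0.21. In host cells Pmaip1 (0.67 ± 0.12) and Bad (0.30 ± 0.08) were higher and Bmf (-0.74 ± 0.14) lower. Bak1, a pore-forming effector, was higher in donor cells by 0.63 ± 0.09 and in host cells by 0.38 ± 0.08, and Bax did not pass in either.

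STAT5 and its other targets had calls on both sides. Of 13 genes (Stat5a, Stat5b and 11 targets), 5 were lower and 2 higher in donor cells than in control cells, with a median of -0.23, where 23% of all genes were lower and 22.7% higher. In host cells 3 were lower and 1 higher, with a median of -0.09, where 7.82% of all genes were lower and 8.61% higher. Il2ra, the interleukin 2 receptor chain of activated lymphocytes, was lower, at -4.04 ± 0.29 in donor cells and -0.99 ± 0.22 in host cells. The feedback inhibitor genes Socs1 and Socs2 were lower, at -1.42 ± 0.15 and -1.45 ± 0.21 in donor cells and -0.54 ± 0.17 and -0.78 ± 0.19 in host cells. Lymphoid markers were lower in the same comparisons, 6 of 6 B-cell markers in donor and in host cells (median log2 fold changes of -5.18 and -1.41) and 7 of 8 T- and NK-cell markers in donor cells (median -3.78), and their part in the Il2ra, Socs1 and Socs2 values was not tested. Stat5a and Stat5b passed in neither donor nor host cells relative to control cells. In donor cells relative to host cells 3 of the 13 were lower, Il2ra, Socs1 and Ccnd1, and 1 was higher. The median of the 13 was -0.16 there, where 9.94% of all genes were lower and 4.17% higher. The higher gene was another feedback inhibitor, Cish, at 0.37 ± 0.08. Of 10 genes of PIM substrates, 6 were higher and 4 lower in donor cells, beside the same 22.7% and 23% of all genes, among them Cxcr4, the marrow retention receptor, at -0.53 ± 0.08, and Cdkn1b, encoding the cell-cycle inhibitor p27, at -0.43 ± 0.07. In host cells 3 were higher and 1, Cdkn1b (-0.24 ± 0.07), lower, beside 8.61% and 7.82% of all genes.

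**Figure D5:**
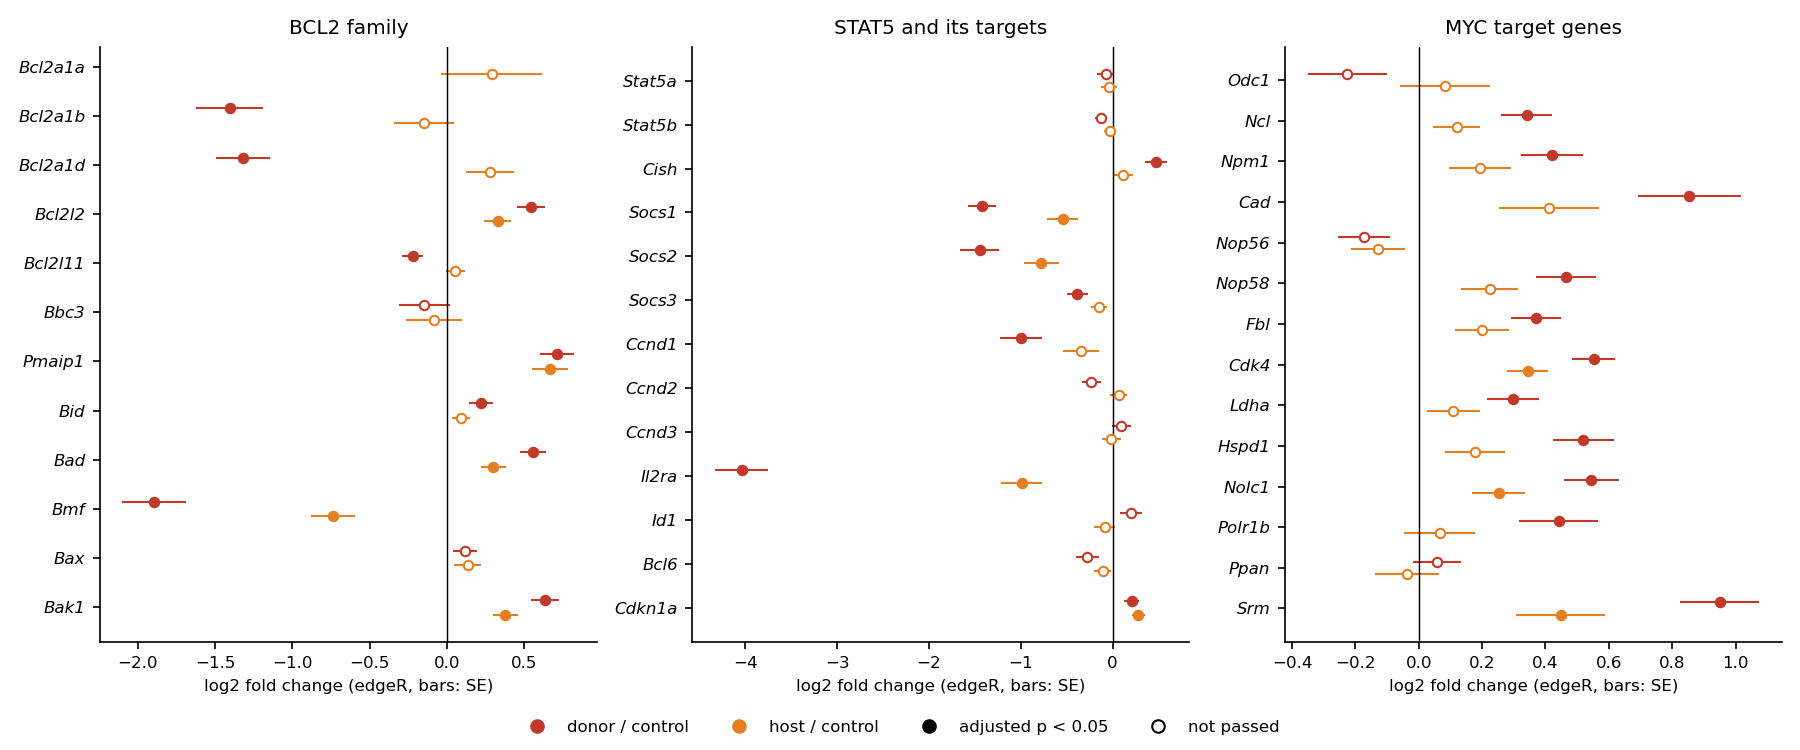
Log2 fold changes (edgeR, bars showing the SE) in donor and host cells relative to control for the tested BCL2 family genes beside the members, for STAT5 and its targets, and for MYC target genes; filled points passed at an adjusted p below 0.05. Il2ra lies lowest at -4.04 in donor cells, and 11 of 14 MYC targets have filled points above 0 in donor cells.

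In stroma of transplanted mice relative to control stroma, 0 of the 8 genes passed. Of the 26191 genes tested, 0.466% were higher and 1.03% lower (1.49% in all, and 0.977% with the euthanasia day as block). An unadjusted p below 0.05 in edgeR was reached by 3 of the 8 and by 2086 of the 26191 genes. With DESeq2 1 of the 8 passed, and the share of all genes that did is not given here. Bcl2l1 had the smallest p of the 8. In stroma its lowest, median and highest values were 21.82, 92.61 and 176.5 TPM in transplanted mice and 26.01, 43.3 and 54.7 TPM in control mice. Of the 7 transplanted mice, 6 lay above all control mice, and N032 lay below all of them. The log2 fold change was 1.21 ± 0.33 (SE, edgeR adjusted p = 0.0897), and the adjusted p was 0.0127 with DESeq2, 0.0479 with a stricter filter on low counts and 0.00497 without the library of N032, at 1.34 (both edgeR).

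Pim1 and Pim2 came next in stroma. Pim1 had 38.8, 71.72 and 96.09 TPM as its lowest, median and highest values in transplanted mice and 28.32, 37.97 and 78.65 TPM in control mice, with a log2 fold change of 0.68 ± 0.24 (edgeR adjusted p = 0.297). Pim2 had 4.95, 8.06 and 15.21 TPM in transplanted mice and 3.995, 6.008 and 9.01 TPM in control mice, with a log2 fold change of 0.53 ± 0.22 (edgeR adjusted p = 0.48). The ranges overlapped for both, and all 7 transplanted mice lay above the control median for Pim1. The other 5 genes had log2 fold changes from -0.23 (Bcl2) to 0.20 (Osm), with 95% intervals that included 0. Of the context lists above, 0 genes passed with edgeR in stroma.

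The summed level of erythroid markers moved with the group in stroma. The 8 erythroid markers summed to 9994, 31810 and 71990 TPM (lowest, median and highest) in transplanted mice and 2279, 6487 and 7701 TPM in control mice. The groups did not overlap, and 3 of the 8 markers, the haemoglobin genes Hbb-bs and Hba-a1 among them, passed as higher in transplanted mice. No erythroid marker was at 0 in all libraries of a stroma group. Over the 15 stroma libraries, which share their preparation and the group difference, r with this sum was 0.729 for Bcl2l1, 0.708 for Pim1 and 0.645 for Pim2. The library of N203 had the highest sum and the highest Bcl2l1, Pim1 and Pim2. The part of erythroid RNA in these differences was not tested. Of 6 macrophage markers, 3 (C1qa, C1qb and C1qc) passed as higher in transplanted mice, while the sum of the 6 had medians of 97.88 TPM in transplanted and 97.29 TPM in control mice, with ranges of 41.02 to 190.6 TPM and 55.53 to 219.3 TPM that overlapped.

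The difference between transplanted and control mice was itself compared between stroma and host cells. Both kinds of library came from the same mice and from different kits, and the animal was not a block in this fit. Pim2 passed alone of the 8, where 1.08% of 22991 genes passed in that direction and 1.61% in the other (2.69% in all): the stroma difference exceeded the host difference by a log2 value of 0.97 ± 0.24 (edgeR adjusted p = 0.0183; 0.00331 to 0.0718 over the alternatives). The call held in 19 of 30 fits leaving out 1 library and was lost without any 1 of 4 host libraries (N279, N014, N032 or N269), 6 CD45.1 control libraries (N208, N288, N051, N002, N280 or N283) or the stroma library of N203. Bcl2l1 had 1.1 ± 0.37 (edgeR adjusted p = 0.125, and 0.00722 without the stroma library of N032). Pim1 had 0.70 ± 0.25 (edgeR adjusted p = 0.165, and 0.0248 or 0.042 without the stroma library of control N283 or transplanted N269).

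In CD11b cells 52 weeks after transplantation, 0 of the 8 genes passed with edgeR, where 0% of the 15257 genes passed in either direction and 2506 had an unadjusted p below 0.05; 0 of the 8 had one below 0.05, and 0 passed with DESeq2. Myc came nearest, with 10.26, 11.52 and 24.61 TPM in transplanted mice and 8.41, 9.24 and 10.51 TPM in control mice. The groups overlapped, the library of N129 standing apart at 24.61 TPM, and the log2 fold change was 0.50 ± 0.22 (edgeR adjusted p = 0.305). Osm had 156.8, 161.0 and 259.5 TPM in transplanted mice and 209.4, 228.7 and 244.9 TPM in control mice, a log2 fold change of -0.39 with a 95% interval of -0.86 to 0.07. Mcl1 had 317.1, 346.4 and 373.4 TPM in transplanted mice and 356.7, 367.8 and 406.7 TPM in control mice, a log2 fold change of -0.26 with an interval of -0.51 to -0.01 and an edgeR adjusted p of 0.334.

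The library of N129 also had the highest TPM of Pim1, Pim2, Pim3, Bcl2l1 and Bcl2 among the 6 CD11b libraries. These were 143.5, 3.18, 8.65, 23.19 and 2.68 TPM. On TMM-scaled counts, the scale of the edgeR tests, the highest control values were 242.7 for Pim1, 3.972 for Pim2 and 17.7 for Pim3. For Bcl2l1 the highest transplanted value was 36.0 and the highest control value 36.25, and for Bcl2 they were 14.4 and 10.19. The library of N129 was not the highest on these counts for Pim1, Pim2 or Pim3, at 229.4, 3.899 and 12.69. It had the lowest sum of neutrophil markers, 202400 TPM, against 291500 and 302900 TPM in the other 2 transplanted mice and 318200 to 329300 TPM in control mice. Its sum of T- and NK-cell markers was 292.1 TPM, against 165.3 and 169.4 TPM in the other 2 transplanted mice and 124.0 to 136.5 TPM in control mice. That sum includes Nkg7, whose share of it in CD11b cells is not given here. Their part in its values was not tested. The log2 fold changes of Pim1, Pim2, Pim3, Bcl2l1 and Bcl2 in CD11b cells lay between -0.13 and 0.30, with 95% intervals that included 0.

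The difference between transplanted and control mice was compared between the sexes in host, donor and stroma cells, and 0 of the 8 genes passed with edgeR or DESeq2 in any of the 3, where 0%, 0.00719% and 0% of genes passed. Pim1 in stroma was the only one of the 24 values with an unadjusted p below 0.05 in edgeR (0.0374, adjusted p = 0.98). Of all genes, 425 of 14073 in host, 346 of 13906 in donor and 745 of 26191 in stroma cells had such a p. Slopes on log2 of blood chimerism over the 7 transplanted mice gave 0 passing genes in host, donor or stroma cells with edgeR, where 0% of genes passed in each, and 0 of the 8 with DESeq2. Among the 24 slopes, 1 had an unadjusted p below 0.05: Osm in stroma, at 0.73 ± 0.17 per doubling of chimerism (edgeR adjusted p = 1.0). Slopes with an unadjusted p below 0.05 numbered 538 of 12600 genes in host, 242 of 12189 in donor and 680 of 20516 in stroma cells. Stroma Osm also had r of 0.809 with the sum of the 8 neutrophil markers over the 15 stroma libraries, and the part of neutrophil RNA was not tested.

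Among the 22 CD45-sorted libraries, which share preparation and group differences, Pearson's r on log2 CPM (counts scaled to 1000000 per library) described which genes varied alike. Of the 28 pairs of members, Mcl1 and Osm had the highest r, 0.793, followed by Pim1 and Myc at 0.723 and Pim2 and Bcl2 at 0.713, and Bcl2l1 and Bcl2 had the lowest, -0.616. Over 12175 genes, the one most like Pim2 was Fam43a (r = 0.954), then Rbm24 and Klra13-ps (both 0.95). Those most like Bcl2 were Sh2d1a, an adaptor gene of T and NK cells (0.92), Nsmaf (0.911) and Btbd11 (0.902). Bcl2l1 varied most like Qsox1 (0.958), Trak2 (0.91) and Ggt1 (0.905). Mcl1 varied most like Plk3 (0.96), Slc2a6 (0.952) and Phlda1 (0.933), and Osm most like the histone gene Hist1h1c (0.914), Sat1 (0.894) and Suco (0.888). Pim1 varied most like Ppp1r15a (0.863), Hivep2 (0.857) and Epha2 (0.856), Pim3 most like Klhl21 (0.846), Bst2 (0.839) and Rftn1 (0.826), and Myc most like Snx5 (0.891), Enpp1 (0.864) and Slc1a5 (0.859).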

How the data were processed

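Per the labels' protocols, the CD45-sorted libraries are directional and poly-A selected, and the stroma libraries used a low-input kit. Per the submitters' processing notes, STAR 2.7.3a, GRCm39, featureCounts of Subread 1.6.2 and RSEM 1.3.3 were used; their roles, the annotation and the strand setting are not given in the sources used here. Counts deposited by the authors are whole and not normalized. The TPM values deposited by the authors sum to 1000000 per library; in stroma 50.1% of the values above 0 lie halfway between 2 steps of the last decimal, against 0.0% in the CD45-sorted libraries, and the step that made them is not stated. Gene identifiers were matched to symbols in the reference table (51948 of 56941).

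Counts were tested with edgeR 4.0.16 in R 4.3.3: filterByExpr, TMM scaling, quasi-likelihood F-test, sex as a covariate except in CD11b cells (all male), and Benjamini-Hochberg adjustment over all genes tested; 0.05 was the threshold on the adjusted p. Each fit held the groups compared. Intervals are the log2 fold change ± 1.96 SE. Levels are TPM. Alternatives were RLE scaling, DESeq2 1.42.0, no filter and a stricter filter, limma 3.58.1 on log2 of TPM plus 1 or 0.1, no sex covariate, replicate blocks, 1 fit of all CD45-sorted groups, and leaving out each library. The fits were tested on simulated counts. Replicates are separate mice, per the labels. Named genes are all 8 members, up to 4 genes with the smallest p among those of each context list that passed, and the 3 genes most like each member, passing over unnamed models and antigen-receptor segments. The members, lists and tests were chosen with earlier results of these data known. Osmr, Nkg7 and single libraries were named after their values were seen. Some marker genes are counted in their lists and are not reported singly here.

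Donor and host libraries of 1 mouse shared their deviation from the group means in each of 7 mice (r 0.176 to 0.568 across genes), and libraries with 1 euthanasia date in the labels did so in the 5 pairs for host (0.229 to 0.275) and donor cells (0.147 to 0.27), so these blocks are given beside the results they change. In stroma (0.052 to 0.526) and CD11b cells (-0.045 to 0.076) the day did not pair all libraries. Stroma and CD45.1 libraries of the same control mouse gave 0.075 to 0.266.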

Additional observations from a re-analysis of the deposited data

Results flagged for a closer look

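Of 40 sets of one gene in one group of 4 to 10 libraries, 1 held a library far from the others: Myc in control stroma, where the library of N280 had 137.2 TPM and the next highest 97.43 TPM. About 1 such set in 20 is reached by chance. The Pim2 difference between transplanted and control mice differed between stroma and host cells by a log2 value of 0.969 (edgeR adjusted p = 0.0183), being 0.53 in stroma and -0.42 in host cells.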

How the results depend on the processing

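Of the 1928 values of the 8 genes under the alternatives, 0 changed sign among those past the threshold in either fit, and 102 did among those past it in neither. The number of genes past the threshold in host against control cells, 2 of 8, was 1 on TPM plus 1, on TPM plus 0.1 and with the euthanasia day as replicate block, and 0 to 3 leaving out 1 library. In donor against control cells it was 5, and 3 on TPM plus 1 and on TPM plus 0.1, and 3 to 6 leaving out 1 library; the day block gave 5, with Bcl2l1 gained and Osm lost. In donor against host cells it was 2, and 4 with the animal as a replicate block. In stroma it was 0, and 1 with DESeq2, 1 with the stricter filter and 0 to 1 leaving out 1 library (1 without N032). The comparison of stroma with host differences gave 1, and 0 to 2 leaving out 1 library. The replicate block changed no other call of the 8 genes. No block was fitted for the comparison of stroma with host differences, the sexes or the chimerism slopes. All 8 genes passed the filter on low counts. Among level differences within CD45-sorted, stroma and CD11b cells, 1 moved by at least its spread between TPM and TMM-scaled counts. It was Mcl1 in CD11b cells, with a log2 ratio of means of -0.262 on scaled counts. With 3 libraries a group the CD11b comparison passed 0 genes, so a member missing there is not shown to be unchanged. The causes of these changes were not tested.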
